A study of Mus musculus with 6 samples.

Results

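The loci of 4 genes that restrain inflammatory signalling, Nfkbia, Tnfaip3, Dusp1 and Zfp36, were examined in DNase I hotspot lists of mouse macrophages. Members were all hotspots of the 6 lists that overlapped the mm9 windows chr12:56520000-56660000 for Nfkbia, chr10:18620000-18800000 for Tnfaip3, chr17:26580000-26700000 for Dusp1 and chr7:29120000-29200000 for Zfp36. Overlapping hotspots of the 6 libraries were merged into regions, which gave 60 regions in the 4 windows of 59069 regions in all. The windows held 14 regions at Nfkbia, 24 at Tnfaip3, 13 at Dusp1 and 9 at Zfp36. Regions are numbered within a window by position, and a region is called shared where all 6 libraries list it.

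DNase-seq maps open chromatin by sequencing the ends of fragments that DNase I cuts from nuclei, and a hotspot is a stretch with more cuts than its surroundings. The cells were primary macrophages grown from the bone marrow of C57BL/6J mice. In 2 libraries the cells were treated with Dex, the glucocorticoid of the study, before 8 h of lipopolysaccharide (LPS), in 2 libraries Dex was added late in the 8 h of LPS, and in 2 libraries the cells received LPS alone for 8 h. All 3 groups thus carry the LPS stimulus, and cells without LPS were not analysed here. The labels give no dose of Dex, no interval between the agents and no age or number of mice. Since no label ties the replicates to separate cultures or mice, p-values here reflect the variation among these libraries, and that variation may be purely technical. The series title concerns when the glucocorticoid was given, and the comparisons set each Dex schedule against LPS alone and against the other.

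LPS activates the transcription factor NF-kB and the MAP kinases, and the same signals switch on inhibitors that limit both. Nfkbia encodes IkB-alpha, which holds NF-kB in the cytoplasm and is itself an NF-kB target. Tnfaip3 encodes A20, a ubiquitin-editing enzyme that dampens signalling upstream of NF-kB. Dusp1 encodes a phosphatase that inactivates p38 and JNK, and Zfp36 encodes tristetraprolin, which binds AU-rich elements of cytokine messenger RNAs and promotes their decay. Glucocorticoids are known to act on several of these genes, with Dusp1 and Nfkbia among the classic examples.

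The promoter sequences of the 4 genes are shown for the letters of motifs tied to these signals. They are RefSeq sequences in build GRCm38.p6, 250 bases before to 50 bases after the annotated start, all on the minus strand, and all 4 genes had an entry. The hotspot files are in mm9, so no promoter is placed on a hotspot here. Capitals mark matches on either strand to 5 NF-kB forms (GGGACTTTC, GGGAATTTC, GGGAAATTC, GGAAATTCC, GGGGATTTC), to the glucocorticoid receptor hexamer AGAACA, to the AP-1 motif TGANTCA, to the cyclic AMP response element TGACGTCA and to its core TGACG, which lies within the longer element.
Nfkbia, chr12:55492598-55492897: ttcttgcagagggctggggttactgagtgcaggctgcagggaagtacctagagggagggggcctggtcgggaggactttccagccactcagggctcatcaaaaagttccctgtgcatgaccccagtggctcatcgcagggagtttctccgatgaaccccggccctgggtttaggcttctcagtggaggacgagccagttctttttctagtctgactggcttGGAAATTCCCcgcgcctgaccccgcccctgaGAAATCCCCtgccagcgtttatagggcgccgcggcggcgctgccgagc
Tnfaip3, chr10:19015361-19015660: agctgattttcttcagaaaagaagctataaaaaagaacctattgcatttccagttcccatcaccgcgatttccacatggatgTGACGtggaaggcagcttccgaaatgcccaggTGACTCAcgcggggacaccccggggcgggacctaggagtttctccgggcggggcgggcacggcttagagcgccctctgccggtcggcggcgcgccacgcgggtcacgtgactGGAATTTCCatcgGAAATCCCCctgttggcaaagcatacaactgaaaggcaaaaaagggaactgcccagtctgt
Dusp1, chr17:26508423-26508722: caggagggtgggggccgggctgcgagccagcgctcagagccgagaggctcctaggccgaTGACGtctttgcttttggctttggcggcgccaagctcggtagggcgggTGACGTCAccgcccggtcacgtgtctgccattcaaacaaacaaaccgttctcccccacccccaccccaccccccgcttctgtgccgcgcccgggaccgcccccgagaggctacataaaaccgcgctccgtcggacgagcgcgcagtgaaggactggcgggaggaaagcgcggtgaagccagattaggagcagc
Zfp36, chr7:28379179-28379478: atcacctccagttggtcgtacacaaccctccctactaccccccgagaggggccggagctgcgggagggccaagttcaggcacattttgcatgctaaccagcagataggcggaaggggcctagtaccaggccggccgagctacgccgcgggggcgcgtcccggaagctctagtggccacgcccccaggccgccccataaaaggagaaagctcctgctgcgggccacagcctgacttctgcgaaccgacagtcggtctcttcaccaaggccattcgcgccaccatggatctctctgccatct

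Positions in these sequences count from 1 at the 5′ end. The Nfkbia promoter held NF-kB matches at 222 to 230, at 223 to 231 on the other strand and at 253 to 261, the first 2 of which overlap. The Tnfaip3 promoter held NF-kB matches at 227 to 235 and at 240 to 248, an AP-1 match at 115 to 121 and a TGACG core at 83 to 87. An NF-kB match was present in 1.18% of the 32851 promoters of the same length, and an AP-1 match in 7.81%. The Dusp1 promoter held the full cyclic AMP response element at 108 to 115, present in 1.79% of promoters, and TGACG cores at 60 to 64 and within the element, present in 20.8%. The Zfp36 promoter window held none of the capitalised motifs, and its one match to the Sp1 motif GGGCGG, at 188 to 193, is of a kind found in 35.7% of promoters. AGAACA was absent from the 4 windows shown and occurred at 240 to 245 in the window of another annotated Tnfaip3 start, chr10:19011914-19012213, against 19.0% of all promoters. A match describes the letters of these windows and is not a binding site, and a window without one says nothing of the factor.

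The lists differed in length, which bears on every count of hotspots. They held 34646 and 44686 hotspots with Dex before LPS, 29347 and 44447 with late Dex, and 48084 and 51834 with LPS alone, and the first late-treated library was the shortest. The 4 windows held 46 and 47 hotspots in the pre-treated libraries, 39 and 45 in those given late Dex, and 56 and 59 in those given LPS alone. These were 0.133% and 0.105%, 0.133% and 0.101%, and 0.116% and 0.114% of the lists, and the groups overlapped on that scale. Of the 60 regions, 32 were shared by all 6 libraries (53.3%, against 42.5% of all regions), namely 6 at Nfkbia, 10 at Tnfaip3, 8 at Dusp1 and 8 at Zfp36. The shared regions had a median width of 1577 bp, against 1119 bp over all 25091 shared regions. A further 10 regions were listed by 1 library, and these had a median width of 351 bp. Total tag numbers are unknown, so no counting interval is given.

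**Figure D1:**
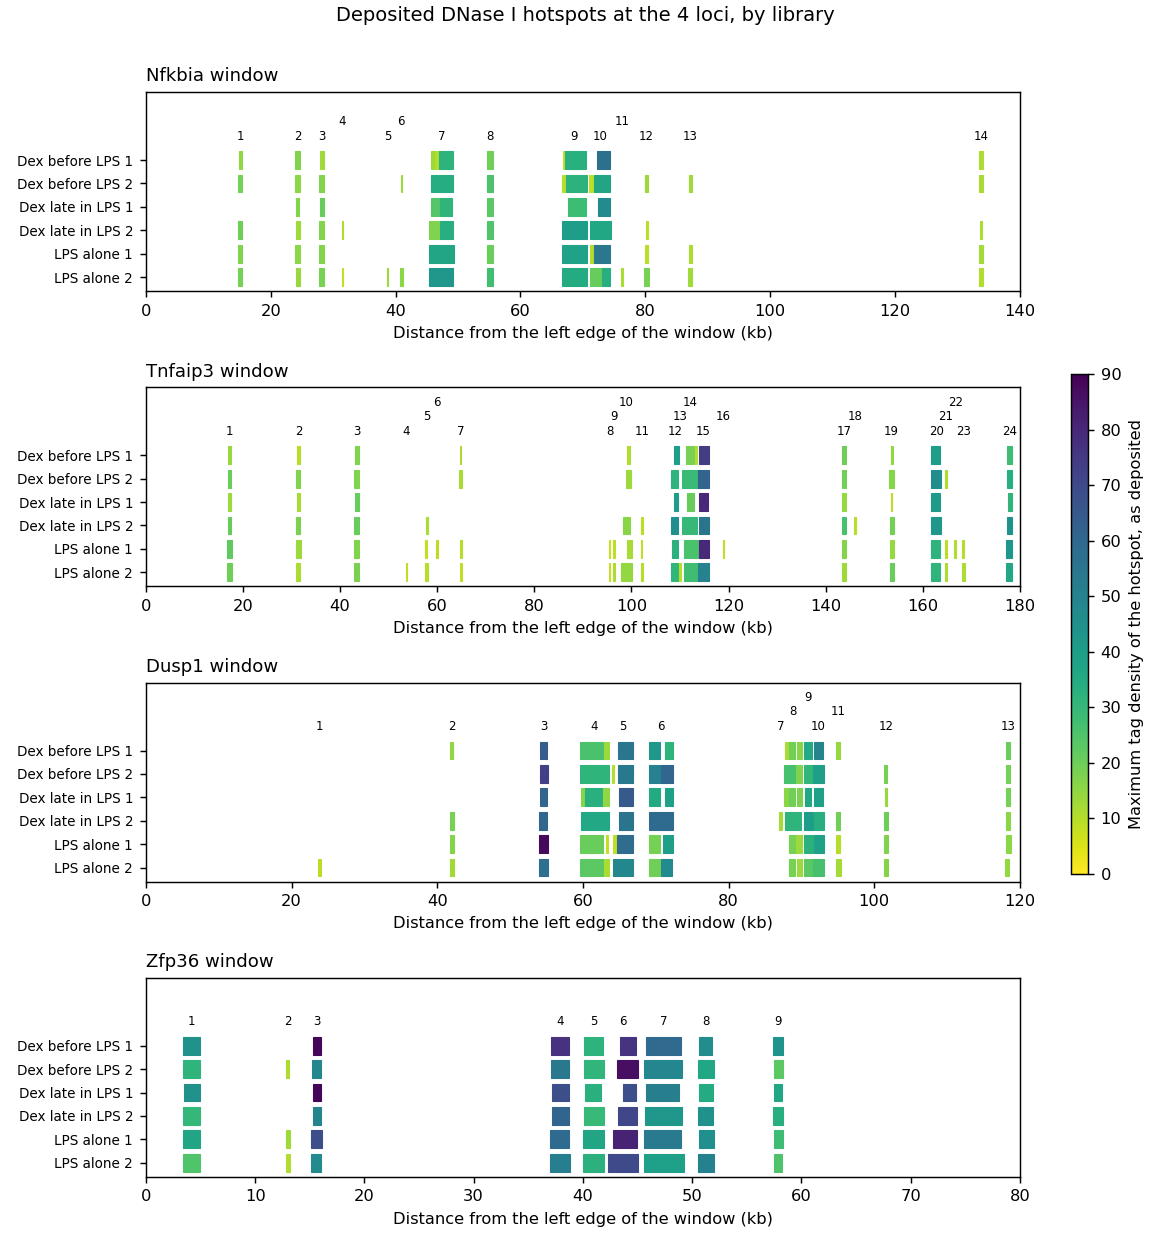
Hotspots listed by each of the 6 libraries in the 4 windows. The horizontal axis is the distance from the left edge of the window in kb, each row is a library, each bar spans a hotspot, the colour is its deposited maximum tag density, and the small numbers are the region numbers. The broad dark regions recur in all 6 rows, and the thin yellow ones are more frequent in the LPS rows, chiefly at Tnfaip3.

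At the 4 inhibitor loci, 32 of the 60 regions were listed in all 6 libraries. In the main fit, which has no term for the replicate number, none of the 32 passed the test for a difference with Dex. Maximum tag density was compared on a log2 scale after quantile normalization over the 25091 shared regions, with limma and Benjamini-Hochberg adjustment at 0.05. With Dex before LPS against LPS alone, 0 of 32 regions passed, against 0.399% of all shared regions (100 of 25091, of which 0.263% higher and 0.136% lower). With late Dex against LPS alone, 0 of 32 passed, against 0.323% (81 of 25091, of which 0.303% higher and 0.0199% lower). Between the Dex schedules 0 of 32 passed, against 0% of all shared regions. At that background a set of 32 regions would hold fewer than 1 call, so the counts of 0 do not set the loci apart. At an unadjusted p under 0.05 the members counted 0 for Dex before LPS (8.91% of all shared regions), 2 for late Dex (6.25% of the members, against 7.75% of all) and 0 between the schedules (3.17% of all). The 2 were Dusp1 regions 4 and 9. The labels do not say that replicate numbers pair the libraries. With the replicate number as a block, the same 2 were called for late Dex, among 1162 of all 25091 shared regions (last section).

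The estimated differences were moderate, and their intervals also allow larger ones. The log2 differences of the 32 regions had a median of 0.06 for Dex before LPS against LPS alone, with a range of -0.39 to 0.43, and 19 of 32 were above 0. They had a median of 0.11 for late Dex against LPS alone, with a range of -0.33 to 0.71, and 20 of 32 were above 0. Over all shared regions these medians were 0.0042 and -0.0055, and 50.73% and 49.05% of the differences were above 0. Between the schedules the median was -0.06, with a range of -0.37 to 0.23. The 95% intervals reached a median of 0.55 to either side of the estimate, and their outermost bounds were -0.97 and 1.01 for Dex before LPS, and -0.94 and 1.25 for late Dex. The 2 comparisons with LPS alone share the LPS libraries, so like signs in both are not independent.

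**Figure D2:**
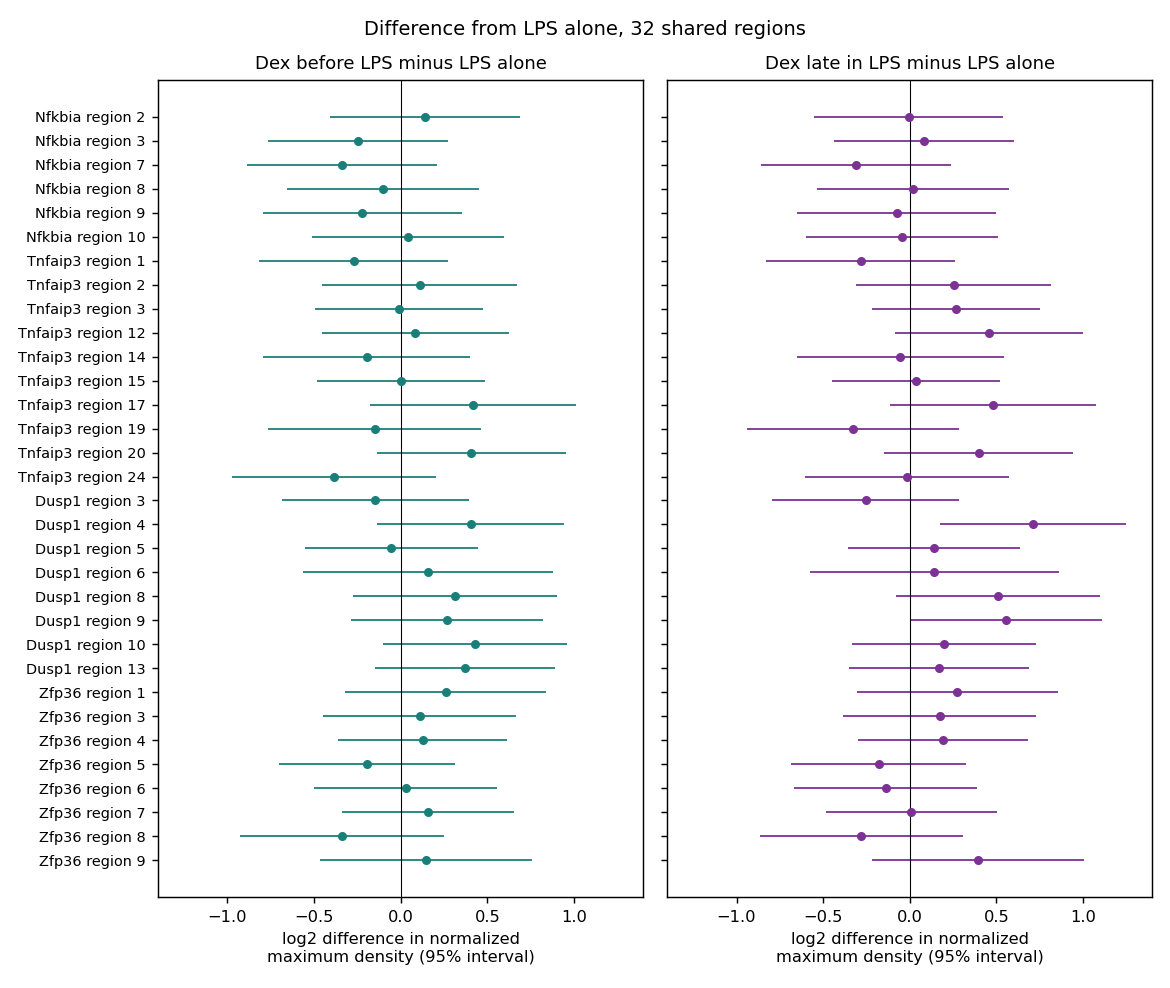
Difference in normalized maximum density from LPS alone for the 32 shared regions, Dex before LPS on the left and late Dex on the right. The horizontal axis is the log2 difference, points are limma estimates and lines 95% intervals (2 libraries a group), and of the 64 intervals those of Dusp1 regions 4 and 9 with late Dex lie above 0.

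The ranks behind the fit are given beside it, since quantile normalization uses the order of regions alone. A region's percentile is the position of its maximum density among the 25091 shared regions of that library. With Dex before LPS, both libraries stood above both LPS libraries at 7 of 32 regions and below them at 7, against 17.8% and 18.6% of all shared regions. With late Dex they stood above at 9 and below at 1, against 16.7% and 17.8%. The pre-treated libraries stood above the late-treated ones at 2 regions and below at 5, against 13.3% and 13.6%. All 4 Dex libraries stood above both LPS libraries at Tnfaip3 region 20 and Dusp1 regions 4 and 8, which is 3 of 32 against 9.12% of all shared regions. All 4 stood below both at Zfp36 region 5, which is 1 of 32 against 9.49%.

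**Figure D3:**
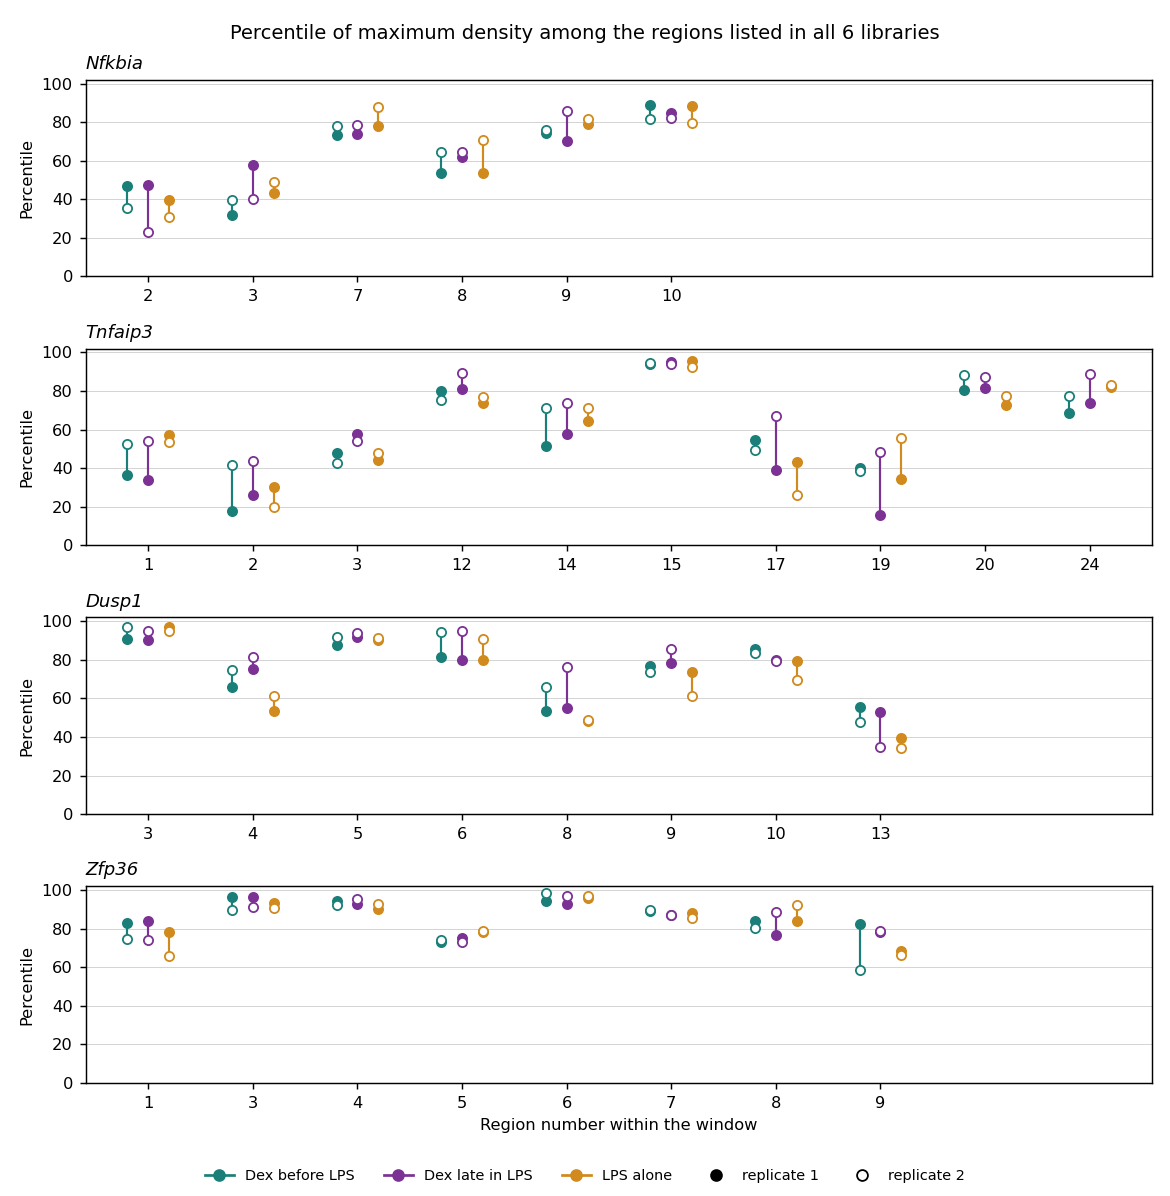
Percentile of maximum density among the 25091 shared regions for each shared member region (horizontal axis, by region number), in each library. Filled and open points are replicates 1 and 2, joined by a line, and groups run from Dex before LPS to late Dex to LPS alone. At Dusp1 regions 4 and 8 and Tnfaip3 region 20 the 4 Dex points lie above the 2 LPS points, and at Zfp36 region 5 below them.

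Where covered lengths did not overlap between a Dex group and LPS alone, members were mostly narrower with Dex, as were shared regions in general. With Dex before LPS, the length covered by hotspots was greater in both libraries than in both LPS libraries at 2 of 32 regions and smaller at 14, against 5.06% and 42.9% of all shared regions. With late Dex it was greater at 3 and smaller at 15, against 1.96% and 56.8%. It was greater with Dex before LPS than with late Dex at 7 regions and smaller at 1, against 19.2% and 2.64%. The Dex lists were also the shorter lists, and the part of list length in these widths was not tested.

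At Nfkbia, the strongest open chromatin formed a group of 3 broad shared regions, 7, 9 and 10, that all libraries listed. Region 10, chr12:56591017-56594530, had maximum densities of 57.2 and 37.2 with Dex before LPS, 47.2 and 36.3 with late Dex, and 54.2 and 33.3 with LPS alone. Replicate 1 was higher than replicate 2 in each group, and the groups overlapped. Its log2 difference from LPS alone was 0.04 (95% interval -0.51 to 0.60) with Dex before LPS and -0.05 (95% interval -0.60 to 0.51) with late Dex, by limma. Region 7, chr12:56565348-56569296, had densities of 31.7 and 34.2 with Dex before LPS, 31.6 and 33.2 with late Dex, and 37.1 and 42.0 with LPS alone. On this deposited scale all 4 Dex libraries were below both LPS libraries, but by percentile the second late-treated library, at 78.7, passed the first LPS library, at 78.3. The log2 differences were -0.34 (95% interval -0.89 to 0.21, limma adjusted p = 0.855) with Dex before LPS and -0.31 (95% interval -0.86 to 0.24, adjusted p = 0.905) with late Dex. Region 9, chr12:56586585-56590682, had percentiles of 74.4 and 75.8 with Dex before LPS, 70.2 and 85.7 with late Dex, and 79.1 and 81.7 with LPS alone. Both pre-treated libraries were below both LPS libraries there, and the late-treated libraries lay on either side of them. Across the 6 shared Nfkbia regions, 2 of 6 log2 differences were above 0 in each comparison with LPS alone, with medians of -0.16 for Dex before LPS and -0.03 for late Dex.

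At Tnfaip3, the strongest region held a like rank in all 6 libraries, regions 12 and 20 ranked higher in some or all Dex libraries without passing the test, and the Dex lists held fewer of the weak hotspots. Region 15, chr10:18733731-18736022, was the strongest of the window, with maximum densities of 74.1 and 61.5 with Dex before LPS, 79.6 and 55.4 with late Dex, and 79.9 and 50.3 with LPS alone. Its percentiles lay between 92.2 and 95.7 in all 6 libraries, and its log2 difference was 0.0018 (95% interval -0.48 to 0.49) with Dex before LPS and 0.04 (95% interval -0.45 to 0.52) with late Dex. Region 12, chr10:18728125-18729728, had percentiles of 79.8 and 75.3 with Dex before LPS, 81.2 and 89.4 with late Dex, and 73.7 and 77.1 with LPS alone. The late-treated libraries stood above both LPS libraries, and the pre-treated libraries overlapped them. The log2 difference of region 12 was 0.08 (95% interval -0.46 to 0.63) with Dex before LPS and 0.46 (95% interval -0.08 to 0.998, limma adjusted p = 0.746) with late Dex. Joining hotspots up to 500 bp apart merges regions 12 to 15. The joined region takes its maximum from region 15 in every library, so its late Dex difference of 0.036 does not bear on region 12.

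Tnfaip3 region 20, chr10:18781687-18783840, lies in the right-hand part of the window, where it had the highest mean over the 6 libraries, although region 24 had the higher maximum density in both LPS libraries and in the second late-treated library. Its maximum densities were 40.4 and 45.9 with Dex before LPS, 40.8 and 42.1 with late Dex, and 31.8 and 31.6 with LPS alone. Its percentiles were 80.3 and 88.3, 81.4 and 87.1, and 73.0 and 77.6 in the same order of groups. All 4 Dex libraries were above both LPS libraries on both scales. The log2 difference was 0.41 (95% interval -0.14 to 0.95, limma adjusted p = 0.762) with Dex before LPS and 0.40 (95% interval -0.15 to 0.94, adjusted p = 0.822) with late Dex. Region 24, at the right edge of the window (chr10:18797247-18798470, chosen after its values were seen), had percentiles of 68.8 and 77.2 with Dex before LPS, 74.0 and 88.6 with late Dex, and 82.1 and 82.9 with LPS alone. The pre-treated libraries were below both LPS libraries and the late-treated ones straddled them, with log2 differences of -0.39 (95% interval -0.97 to 0.20, limma adjusted p = 0.823) and -0.02 (95% interval -0.61 to 0.57). The median over the 10 shared Tnfaip3 regions was -0.0035 for Dex before LPS, with 5 of 10 above 0, and 0.14 for late Dex, with 6 of 10 above 0.

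The number of hotspots differed most at Tnfaip3. Its window held 13 and 13 hotspots with Dex before LPS, 10 and 14 with late Dex, and 21 and 20 with LPS alone, and both Dex groups lay below LPS alone. The mean was 13.0 ± 0 (SD, n = 2) with Dex before LPS, 12 ± 2.83 (SD, n = 2) with late Dex and 20.5 ± 0.707 (SD, n = 2) with LPS alone. Relative to LPS alone these were ratios of 0.634 and 0.585, against 0.794 and 0.739 for the length of the whole lists. The exact two-sided permutation p was 0.333 for each, the smallest that 2 libraries against 2 allow. When each list was limited to its strongest 29347 hotspots, the window held 12 and 11, 10 and 11, and 11 and 10 hotspots in the same order of groups, and the groups overlapped. The hotspots missing with Dex were thus among the weak ones.

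The other windows differed less in number. The Nfkbia window held 11 and 13 hotspots with Dex before LPS, 7 and 11 with late Dex, and 11 and 15 with LPS alone, which overlapped. The Dusp1 window held 14 and 12, 14 and 12, and 15 and 15, and the Zfp36 window 8 and 9, 8 and 8, and 9 and 9 in the same order. The Dusp1 counts of both Dex groups and the late-treated Zfp36 counts were below those of LPS alone by 1 to 3 hotspots, each with an exact permutation p of 0.333. In lists of equal length the groups overlapped at Nfkbia and Dusp1. In the stronger 50% of each list, the Nfkbia window held 4 and 4, 5 and 6, and 6 and 7 in the same order. The pre-treated libraries lay below LPS alone there. The Dusp1 window held 8 and 8, 7 and 7, and 9 and 8, and there the late-treated libraries lay below LPS alone. A broad region can hold several hotspots. Counted as listed regions, the Dusp1 window held 10 and 9 with Dex before LPS, 9 and 12 with late Dex, and 11 and 12 with LPS alone. On that count the late-treated libraries overlapped the LPS libraries. The hotspots of the Tnfaip3 window covered 12.3 and 15.8 kb with Dex before LPS, 9.87 and 16.6 kb with late Dex, and 18.6 and 20.1 kb with LPS alone. At Nfkbia they covered 12.5 and 15.4, 10.3 and 14.9, and 15.9 and 17.4 kb in the same order. All Dex libraries covered less than both LPS libraries in those 2 windows and at Zfp36, with 12.4 and 13.8, 11.6 and 13.2, and 14.4 and 15.3 kb. At Dusp1 the covered lengths were 15.6 and 16.8 kb with Dex before LPS, 14.1 and 17.7 kb with late Dex, and 16.9 and 18.1 kb with LPS alone, and the late-treated libraries overlapped the LPS libraries.

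**Figure D4:**
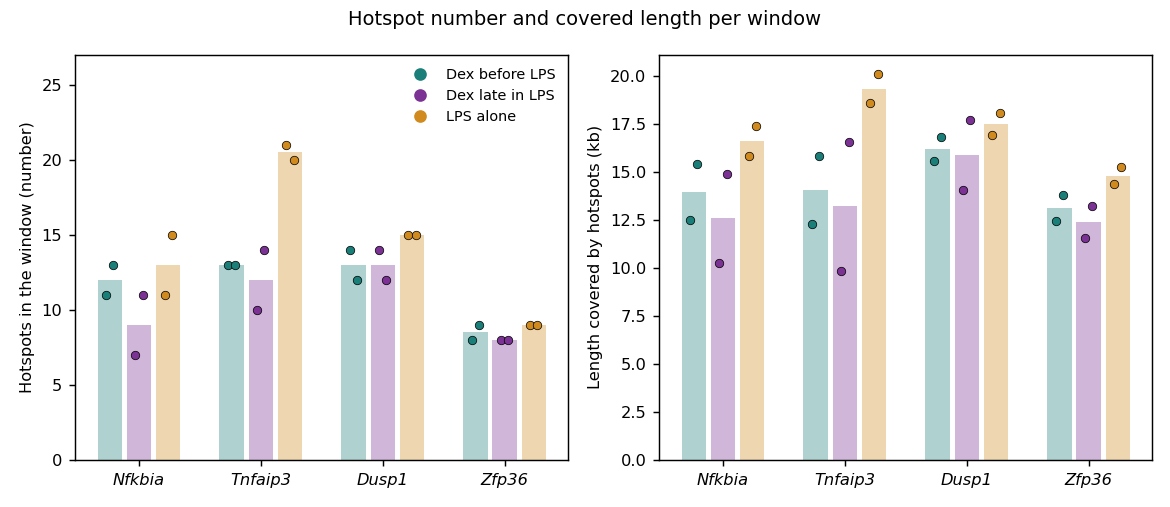
Number of hotspots (left) and length covered by hotspots in kb (right) in each window. Bars are means and points are the 2 libraries of a group, Dex before LPS, late Dex and LPS alone from left to right. Tnfaip3 has 10 to 14 hotspots in the 4 Dex libraries and 20 and 21 in the LPS libraries, and the other windows differ less.

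In the full lists, members present in both libraries of a group and neither of another were found with LPS alone rather than with Dex, but not in lists of equal length. With equal lists, 0 members were found with LPS alone in either comparison, against 3.82% and 3.35% of all 37233 regions. With Dex before LPS 0 were found, against 3.22%, and with late Dex 1, against 2.8%. In the full lists with Dex before LPS, 0 of the 60 regions were present in both pre-treated libraries and neither LPS library, against 0.957% of all regions, and 5 were present in both LPS libraries and neither pre-treated one, against 8.48%. With late Dex these counts were 0, against 0.547%, and 7, against 9.22%. Between the schedules, 1 region was found with Dex before LPS only, against 1.53%, and 0 with late Dex only, against 0.35%. The shares of the members found with LPS alone were thus near the background. The 5 became 10 without the second pre-treated library, 11 without the first LPS library and 8 without the second, the 7 became 15 without the second late-treated library and 13 without the first LPS library, and the count between the schedules became 2 to 6 without any of the 4 Dex libraries in turn. Fewer lists have to fit the rule in these counts, and no share over all regions is given for them. They therefore cannot be set against the shares of the full lists. The 5 of the full lists were Tnfaip3 regions 5, 8, 9, 11 and 23. The 7 were Tnfaip3 regions 7, 8, 9, 21 and 23, Nfkbia region 13 and Zfp36 region 2.

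These regions were narrow and weak. Tnfaip3 regions 8, 9 and 23 were listed with LPS alone and in no Dex library, 3 of 60 against 5.18% of all regions. No region was listed in the 4 Dex libraries alone, against 0.389%. The strongest of them, Tnfaip3 region 23 (chr10:18788077-18788623), had z-scores of 11.95 and 12.3 in the LPS libraries. Nfkbia region 13 (chr12:56606834-56607438) had z-scores of 10.5 in the second pre-treated library and 10.0 and 11.1 with LPS alone, and neither late-treated library listed it. Zfp36 region 2 (chr7:29132810-29133202) had 9.77 in the second pre-treated library and 8.83 and 10.4 with LPS alone, and again neither late-treated library listed it. Tnfaip3 region 7 was found with Dex before LPS at z-scores of 9.46 and 11.4 and with LPS alone at 9.61 and 10.02, and in neither late-treated library. Each lay under the median z-score of every list that held it. The lowest z-score listed was 9.34 and 9.155 with Dex before LPS, 11.56 and 8.982 with late Dex, and 7.981 and 8.349 with LPS alone. Tnfaip3 region 8, at 8.39 and 8.74 with LPS alone, lay under the lowest z-score of every Dex list. Tnfaip3 region 7, Nfkbia region 13 and Zfp36 region 2 lay under that of the first late-treated list. The part of these list limits in the absences was not tested.

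At Dusp1, most shared regions had log2 differences above 0 with Dex, and none passed the test in the main fit. The log2 difference from LPS alone was above 0 at 6 of 8 shared regions with Dex before LPS (50.73% of all shared regions). It was above 0 at 7 of 8 with late Dex (49.05% of all). The medians were 0.29 and 0.18. By percentile, both Dex libraries stood above both LPS libraries at 4 of 8 in each comparison. Over all shared regions the shares were 17.8% for Dex before LPS and 16.7% for late Dex. Regions 4 and 5 lie close together, as do 8, 9 and 10, so the 8 are not independent. Among those above 0, alternative fits turned the sign at regions 4 and 6 with Dex before LPS, and 6, 10 and 13 with late Dex. At region 4 this was only where merging joined it to region 5, whose maximum the joined region takes. The strongest region of the window was not among those above 0. Region 3, chr17:26633927-26635253, had maximum densities of 63.8 and 72.9 with Dex before LPS, 60.8 and 60.7 with late Dex, and 87.6 and 58.0 with LPS alone, and the groups overlapped. Its log2 difference was -0.15 (95% interval -0.69 to 0.39) with Dex before LPS and -0.25 (95% interval -0.79 to 0.29) with late Dex. Region 5, chr17:26644067-26646936, had percentiles of 87.6 and 92.0, 91.8 and 93.8, and 90.3 and 91.3, and region 6, chr17:26649076-26652336, had 81.5 and 94.3, 79.7 and 94.8, and 80.2 and 90.9 in the same order of groups. At region 5 the late-treated libraries were above both LPS libraries by less than 4 percentile points, and at region 6 replicate 2 was the higher in each group.

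Dusp1 region 4, chr17:26639562-26643641, showed the largest difference of the 32 shared regions (described here, like regions 8, 9 and 10, after its values were seen). It is a broad region of 4079 bp between regions 3 and 5. Its maximum densities were 25.9 and 31.5 with Dex before LPS, 32.8 and 35.9 with late Dex, and 20.4 and 22.6 with LPS alone. Its percentiles were 65.8 and 74.7 with Dex before LPS, 75.1 and 81.6 with late Dex, and 53.6 and 61.3 with LPS alone. Its deposited z-scores were 30.7 and 35.6, 36.6 and 37.9, and 21.6 and 23.7. On all 3 scales every Dex library was above both LPS libraries, and both late-treated libraries were above both pre-treated ones. The log2 difference was 0.71 (95% interval 0.17 to 1.25, SE 0.25, limma adjusted p = 0.405) with late Dex and 0.40 (95% interval -0.13 to 0.94, limma adjusted p = 0.756) with Dex before LPS. Among the alternative fits, only that with the replicate number as a block called regions 4 and 9 with late Dex. That fit called 1162 of all 25091 shared regions. Region 4 lies close to region 5, and joining hotspots up to 500 bp apart merges them. The difference of the joined region, whose maximum is that of region 5, was 0.14 with late Dex and -0.06 with Dex before LPS.

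Regions 8, 9 and 10 lie together in the right part of the Dusp1 window. Their percentiles were higher in some or all Dex libraries, while their deposited z-scores overlapped between each Dex group and LPS alone. Region 8, chr17:26667676-26670085, had percentiles of 53.4 and 66.2 with Dex before LPS, 54.9 and 76.3 with late Dex, and 48.1 and 48.9 with LPS alone. All 4 Dex libraries were above both LPS libraries, with log2 differences of 0.31 (95% interval -0.27 to 0.90, limma adjusted p = 0.903) with Dex before LPS and 0.51 (95% interval -0.08 to 1.10, adjusted p = 0.727) with late Dex. The late Dex value was 0.17 without the second late-treated library and 0.83 without the first. It was also the wider with Dex: its hotspots covered 1975 and 2340 bp with Dex before LPS, 2016 and 2311 bp with late Dex, and 1809 and 1609 bp with LPS alone, in contrast to most shared regions. Region 9, chr17:26670373-26671559, had percentiles of 76.9 and 73.7 with Dex before LPS, 78.2 and 85.7 with late Dex, and 73.7 and 61.3 with LPS alone. The late-treated libraries were above both LPS libraries, with a log2 difference of 0.56 (95% interval 0.0041 to 1.11, limma adjusted p = 0.639), and with Dex before LPS it was 0.27 (95% interval -0.28 to 0.82). Region 10, chr17:26671575-26673126, had percentiles of 85.6 and 83.6 with Dex before LPS, 80.0 and 79.2 with late Dex, and 79.6 and 69.3 with LPS alone. There the pre-treated libraries were above the rest, with log2 differences from LPS alone of 0.43 (95% interval -0.10 to 0.96, limma adjusted p = 0.709) and, for late Dex, 0.20 (95% interval -0.33 to 0.73).

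**Figure D5:**
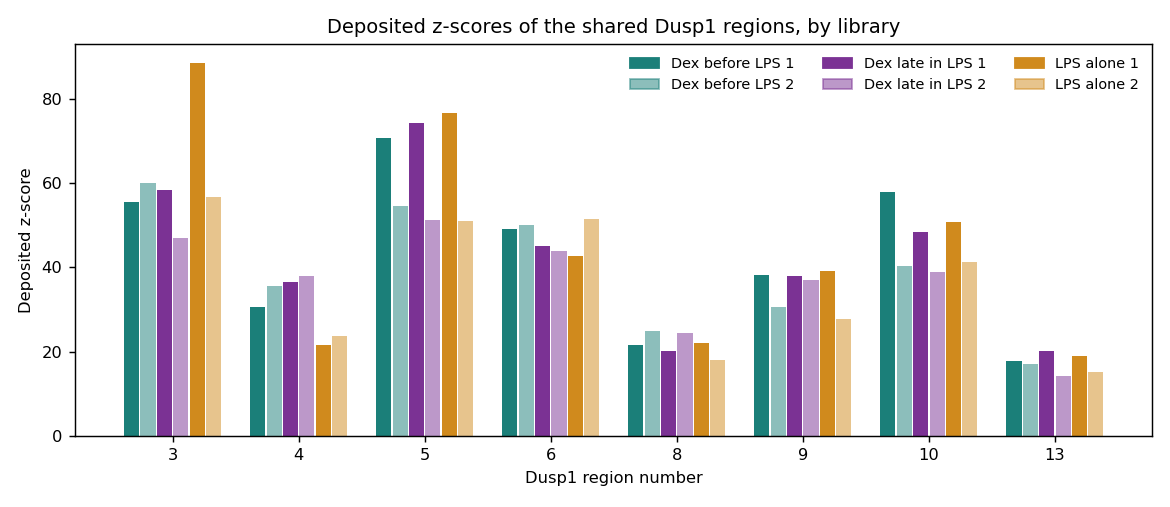
Deposited z-scores of the 8 shared Dusp1 regions (horizontal axis, by region number) in each library, with full colour for replicate 1 and pale colour for replicate 2. At region 4 the 4 Dex libraries reach 30.7 to 37.9 and the LPS libraries 21.6 and 23.7, and at most other regions the bars of the groups overlap. Z-scores are not stated to be comparable between lists.

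At Zfp36, open chromatin was dense and strong in every library, and 8 of the 9 regions were shared. Region 6, chr7:29162282-29165047, had maximum densities of 76.6 and 86.6 with Dex before LPS, 68.4 and 70.9 with late Dex, and 81.3 and 69.8 with LPS alone. Its percentiles lay between 92.8 and 98.4 and overlapped between groups, with log2 differences of 0.03 (95% interval -0.50 to 0.56) with Dex before LPS and -0.14 (95% interval -0.67 to 0.39) with late Dex. The length its hotspots covered was 1505 and 1902 bp with Dex before LPS, 1161 and 1797 bp with late Dex, and 2256 and 2765 bp with LPS alone, so it was narrower in all 4 Dex libraries at a like height. Zfp36 regions 3, 4 and 5 were also narrower with each Dex schedule. Of all shared regions, 42.9% were narrower with Dex before LPS and 56.8% with late Dex. Region 3, chr7:29135145-29136089, had densities of 88.9 and 48.6 with Dex before LPS, 88.8 and 49.2 with late Dex, and 68.9 and 47.2 with LPS alone. It differed more between replicate numbers than between groups. Region 4, chr7:29156986-29158781, had percentiles of 94.4 and 92.2, 92.8 and 95.3, and 90.4 and 92.8 in the same order of groups, which lie within 5 points of each other.

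Zfp36 region 5, chr7:29160021-29161956, was the member at which all 4 Dex libraries ranked below both LPS libraries, and it was chosen, like region 8, after its values were seen. Its percentiles were 73.1 and 74.2 with Dex before LPS, 75.1 and 72.9 with late Dex, and 78.3 and 78.9 with LPS alone. The log2 differences were -0.20 (95% interval -0.70 to 0.31, limma adjusted p = 0.944) with Dex before LPS and -0.18 (95% interval -0.69 to 0.33, adjusted p = 0.967) with late Dex. Region 8, chr7:29170495-29171970, had percentiles of 83.8 and 80.6 with Dex before LPS, 76.9 and 88.8 with late Dex, and 84.2 and 92.4 with LPS alone. The pre-treated libraries were below both LPS libraries and the late-treated ones overlapped them, with log2 differences of -0.34 (95% interval -0.93 to 0.25, limma adjusted p = 0.880) and -0.28 (95% interval -0.87 to 0.31, adjusted p = 0.934). Across the 8 shared Zfp36 regions the median was 0.12 for Dex before LPS, with 6 of 8 above 0, and 0.09 for late Dex, with 5 of 8 above 0.

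For the strongest shared region of each window, the region elsewhere with the most similar profile over the 6 libraries was found as the smallest Euclidean distance between log2 values centred on each region's mean. It was chr6:143114773-143117444 for Nfkbia region 10 (distance 0.0519), chr13:42146138-42148959 for Tnfaip3 region 15 (0.0699), chr14:76510185-76511392 for Dusp1 region 3 (0.137) and chr9:107504237-107505018 for Zfp36 region 6 (0.0515). The median distance over all shared regions was 0.697, 0.62, 0.772 and 0.74 for the 4 regions in that order. With 25091 regions and 6 libraries, close neighbours in profile are a description only.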

How the data were processed

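DNase-seq of 6 libraries was deposited as a hotspot list for each library, in mm9 with CASAVA as read software, per the submitters' processing notes; how reads were aligned and hotspots called was not given in the sources used here. Per the file headers, the deposited signal is the maximum and average tag density of a hotspot, the deposited score is a z-score, and the deposited p-value is the hotspot's own and was not used. No scaling of the densities is stated, nor whether positions count from 0 or 1, so they are printed as deposited.

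Hotspots overlapping by at least 1 bp were merged over the 6 lists. For the 25091 regions listed by all 6 libraries, the log2 of the deposited maximum density (the highest hotspot of a region) was quantile-normalized and fitted in limma 3.58.1 (R 4.3.3, trended eBayes) with all 3 groups in a single model, adjusted by Benjamini-Hochberg over all regions at 0.05. Quantile normalization keeps only the order of regions within a library. The fit was run on simulated data with independent noise in each library. That simulation does not include variation shared by libraries of the same replicate number. Window counts had exact two-sided permutation tests. In each window the 3 strongest shared regions, any called region and the strongest group-exclusive region were named by rule. The members and lists were chosen with earlier results of these data known. Other pathway genes and cell type markers were not analysed here, as no annotation in mm9 was used. RefSeq sequences are in GRCm38.p6.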

Additional observations from a re-analysis of the deposited data

How the results depend on the processing

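With 2 libraries a group and unknown tag numbers, the data do not exclude differences within the intervals printed. The count of 0 shared member regions called held in all 13 alternative fits for Dex before LPS and between the schedules, and in all but the replicate block for late Dex. The labels do not say that replicate numbers pair the libraries. With the replicate number as a block, 2 members were called for late Dex against LPS alone, Dusp1 region 4 (log2 difference 0.71, limma adjusted p = 0.00668) and Dusp1 region 9 (0.56, adjusted p = 0.0426), while 1162 of all 25091 shared regions were called, against 81 without it. The block gave 1458 calls for Dex before LPS and 30 between the schedules, with 0 members. The differences between replicates 1 and 2 correlated across regions at 0.497, 0.452 and 0.437 between the groups. Over the other alternatives the calls over all regions ranged from 12 to 180 for Dex before LPS, 10 to 132 for late Dex, and 0 to 1 between the schedules.

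Of the 32 log2 differences, 15 kept their sign in all alternatives for Dex before LPS, 16 for late Dex and 8 between the schedules. With average density in place of maximum density the sign turned for Nfkbia region 10 (-0.076) and Tnfaip3 region 15 (-0.031) for Dex before LPS, and for Zfp36 region 6 (0.064) and Tnfaip3 region 24 (0.073) for late Dex. With the z-score it turned for Nfkbia region 10 with late Dex (0.12) and Zfp36 region 6 with Dex before LPS (-0.064). With hotspots up to 500 bp apart merged it turned for Dex before LPS at Nfkbia region 10 (-0.0013), Dusp1 region 4 (-0.056) and Zfp36 region 5 (0.029). Among the regions whose differences the text prints, leaving out each library in turn turned signs for Dex before LPS at Nfkbia region 10 (-0.18 to 0.26; below 0 without pre-treated replicate 1 or LPS replicate 2), Tnfaip3 region 15 (-0.15 to 0.15; without pre-treated replicate 2 or LPS replicate 2), Tnfaip3 region 12 (-0.0092 to 0.18; without pre-treated replicate 1), Dusp1 region 3 (-0.42 to 0.12; without pre-treated replicate 1) and Zfp36 region 6 (-0.23 to 0.30; without pre-treated replicate 2 or LPS replicate 1). For late Dex it did so at Nfkbia region 10 (-0.28 to 0.17; without late-treated replicate 2 or LPS replicate 1), Tnfaip3 region 15 (-0.11 to 0.18; without late-treated replicate 1 or LPS replicate 2), Tnfaip3 region 24 (-0.37 to 0.31; without late-treated replicate 1 or LPS replicate 2), Zfp36 region 6 (-0.36 to 0.080; without late-treated replicate 1), Zfp36 region 8 (-0.59 to 0.0080; without late-treated replicate 1) and Dusp1 region 10 (-0.00015 to 0.39; without LPS replicate 2). The cause of these turns was not tested. Without sign turns, Nfkbia region 7 with Dex before LPS ranged from -0.56 without LPS replicate 1 to -0.11 without LPS replicate 2, and Dusp1 region 8 with late Dex from 0.17 without late-treated replicate 2 to 0.83 without late-treated replicate 1.

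Counts moved with list length. Exclusive regions numbered 0 with lists of equal length and 1 with the stronger 50% of each list for Dex before LPS, 1 and 0 for late Dex, where the 1 was present with late Dex and not with LPS alone, the opposite of the full lists, and 0 between the schedules with the stronger 50% or a cover of at least 50%. Between the schedules, the 1 region with equal lists (1.65% of all regions) was present with late Dex and not with Dex before LPS. This was again the opposite of the full lists. Leaving out each library gave 5 to 11, 7 to 15 and 1 to 6 in the same order of comparisons, where fewer lists have to fit the rule. No share over all regions is given for these counts, so they cannot be set against those of the full lists. In the order Nfkbia, Tnfaip3, Dusp1 and Zfp36, differences in hotspot number with Dex before LPS were 0.5, 1, 1 and 0 with equal lists. With the stronger 50% they were -2.5, -0.5, -0.5 and 0. With late Dex they were 0, 0, 1.5 and 0 with equal lists, and -1, -1.5, -1.5 and 0 with the stronger 50%. These window alternatives were chosen after seeing the data. Leaving out each library, the differences ranged from -8 to -7 at Tnfaip3, -3 to -1 at Dusp1, -3 to 1 at Nfkbia and -1 to 0 at Zfp36 with Dex before LPS. With late Dex they ranged from -10.5 to -6.5 at Tnfaip3, -3 to -1 at Dusp1 and -6 to -2 at Nfkbia, and stayed at -1 at Zfp36.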
